A study of Rattus norvegicus with 65 samples.

Results

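The data described here are the 24 RNA sequencing libraries, of 65 in the series, that follow the response of heart muscle cells to 5-fluorouracil (5FU) over time. All genes in the count table were examined, 14554 in number, and each was asked the same question: was its response to 5FU at 24 hours the same as at 6 hours? The cells were primary cardiomyocytes from neonatal rats, pooled from several litters before plating, kept without serum overnight, and then treated for 6 or 24 hours. There were 4 groups of 6 libraries: 5FU at 10 mM for 6 hours, 5FU at 10 mM for 24 hours, and the DMSO1 control, which received the 1% DMSO of the 5FU wells but no drug, for 6 and for 24 hours. All 4 groups shared the cell preparation and the DMSO. Each library came from a culture of that preparation rather than from an animal of its own, and p-values measure only the spread between cultures. Markers of other cell types were present in every group, and in a bulk sample fewer cells of a type and less RNA per cell cannot be told apart.

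5FU is a uracil analogue used in chemotherapy. Inside the cell it is converted to nucleotides that block thymidylate synthase, so that DNA synthesis runs short of thymidine, and to a false uridine nucleotide that is built into RNA, where it disturbs the processing of ribosomal RNA. Neonatal cardiomyocytes are contractile cells that are leaving the cell cycle, and their cultures also hold fibroblasts, which make the collagen matrix of the heart. A response of such a culture can therefore appear early and fade, appear late, or turn from one direction to the other.

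For each gene, the 5FU effect is the log2 ratio of 5FU to DMSO1 at a time point, and the change of effect is the effect at 24 hours minus the effect at 6 hours. A change of effect above 0 means that the 5FU to DMSO1 ratio was higher at 24 hours than at 6 hours. It was called at an adjusted p (Benjamini-Hochberg FDR) below 0.01 in edgeR's quasi-likelihood test. Levels are given as CPM, the counts of a gene relative to the library total and scaled for library composition, and changes are log2 differences ± SE. Total counts ran from 14332827 to 21970914 per library.

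A single library, the first DMSO1 24-hour library in file order, did not sit with its group. Across the 10678 genes with a mean count of at least 100, each library was placed on the line from the mean of its group mates (0) to the mean of the other arm at the same time (1). This library lay at 0.45, and for 715 of the 743 genes in which the 2 arms differed by at least 1 on the log2 scale (96.2%) it lay on the 5FU side of its mates. The other 23 libraries lay between -0.15 and 0.13. Gdf15, a stress cytokine and target of p53, had 58.5 CPM in that library, inside the 5FU 24-hour range of 52.3 to 63.5, while the next highest DMSO1 24-hour library had 7.54. The library was kept under its label. Calls of named genes that depended on it, and the gene list counts that moved most in proportion, are given with their value without it. Other list counts moved less. For example, 39 cytosolic ribosomal protein genes had a lower effect with it and 33 without, and 10 and 14 interferon response genes a higher one. The first 5FU 6-hour library and the third DMSO1 6-hour library also stood apart, with 121 and 106 genes more than 1 log2 unit from their group mates, against 137 for the first DMSO1 24-hour library and 10 to 39 for the others.

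**Figure D1:**
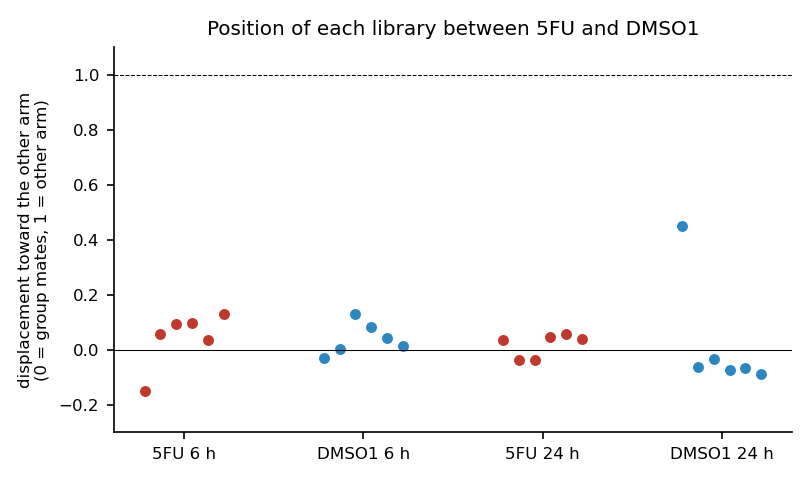
Position of each of the 24 libraries (points) between the mean of its group mates (0) and the mean of the other arm at the same time (1, dashed), by group, on log2 CPM over 10678 genes. One DMSO1 24-hour library lies at 0.45, and the others lie between -0.15 and 0.13.

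The 5FU effect differed between the time points in 5755 of the 14554 genes (39.5%). It was higher at 24 hours in 2961 genes (20.3%) and lower in 2794 (19.2%), and in 1048 genes the difference was at least 1 on the log2 scale. Over all genes the median change of effect was -0.02. Without the first DMSO1 24-hour library the change was higher in 3098 genes (21.3%) and lower in 2918 (20%), and 5552 of the 5755 kept their call and direction. The genes were then sorted by whether 5FU had a called effect at each time, using the same test within the time point.

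The largest class was late: 2431 genes had a called 5FU effect at 24 hours only, 1184 of them with a higher and 1247 with a lower effect. Among the late genes with a lower effect the median effect went from 0.01 at 6 hours to -0.82 at 24 hours, and 471 of them changed by at least 1. The early class, with a called effect at 6 hours only, held 1440 genes, of which 783 moved upward (median effect -0.50 to 0.04) and 657 downward (0.45 to -0.05). In 729 genes the effect was called at both times with opposite signs. Of these reversed genes 432 were below DMSO1 at 6 hours (median effect -0.33) and above it at 24 hours (0.36), and 297 went the other way (0.31 to -0.39). The effect grew in the same direction in 594 genes and faded without losing its call in 426. In 135 genes the change of effect was called although neither effect was.

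**Figure D2:**
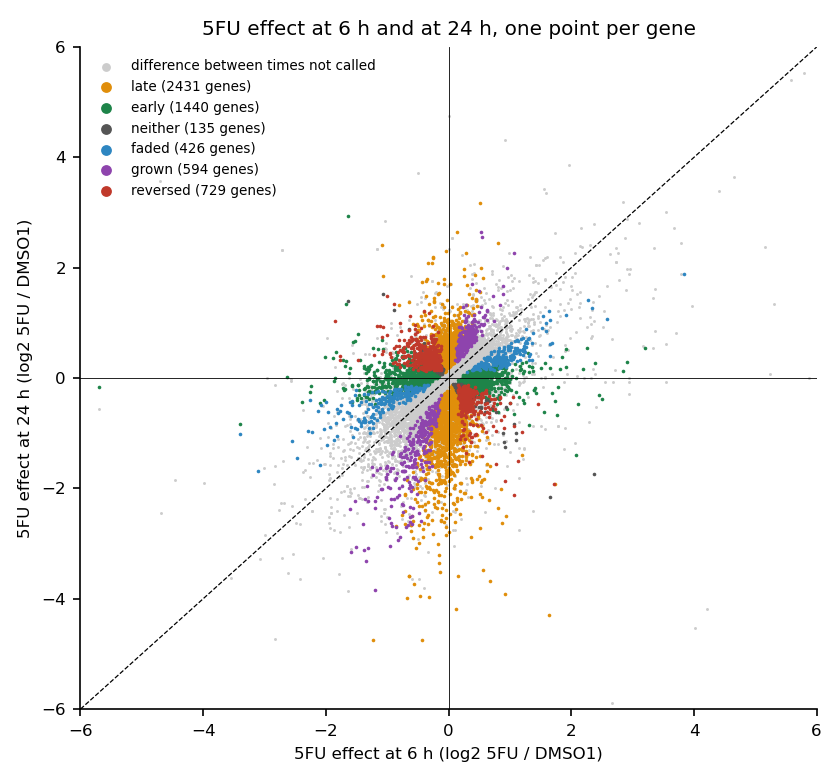
5FU effect (log2 5FU/DMSO1) at 6 hours against that at 24 hours, each point a gene, coloured by class, with grey for genes whose change of effect was not called. The dashed line marks equal effects, and 8 genes lie outside the axes. The 2431 late genes spread along the vertical axis, mostly downward at the far end, and the 729 reversed genes lie at the upper left and lower right.

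Because an effect is a ratio, it can change through either arm. Of the 2961 genes with a higher effect at 24 hours, 943 rose over time in 5FU with no called change in DMSO1, 810 fell over time in DMSO1 with no called change in 5FU, and 352 did both. The remainder moved in the same direction in both arms by different amounts (448 rose and 346 fell) or had no call in either (62). Of the 2794 genes with a lower effect, 993 fell over time in 5FU alone, 721 rose in DMSO1 alone, and 359 did both, while 427 fell and 215 rose in both arms and 79 had no call in either. As background, 27.2% of all genes rose and 30.2% fell over time in 5FU, and 25.9% rose and 27.9% fell in DMSO1. Of all genes, 23.4% were above and 24.5% below DMSO1 at 6 hours, and 28% were above and 27.8% below at 24 hours.

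The genes that turned from below DMSO1 to above it were led by Cgn, which encodes the tight junction protein cingulin. Its level was 4.29 to 6.07 CPM (median 5.11) in 5FU and 14.4 to 20.5 (17) in DMSO1 at 6 hours, and 11.3 to 13.4 (11.7) against 7.44 to 11.7 (8.82) at 24 hours. The groups were far apart at 6 hours and just touched at 24 hours, where the highest DMSO1 value was that of the first library. The effect went from -1.77 to 0.40, a change of 2.17 ± 0.18 (adjusted p = 4.0e-15). Fubp1, a single-strand DNA and RNA binding protein, had 26.5 to 35.5 CPM (31.6) in 5FU and 92.6 to 117 (107) in DMSO1 at 6 hours, and 76.4 to 97.7 (82.1) against 63.5 to 72.9 (68.5) at 24 hours. Srsf1, a splicing factor of the SR family, had 99.5 to 119 CPM (102) against 263 to 320 (289), and then 201 to 221 (215) against 156 to 185 (169). For neither gene did the groups overlap at either time, and the changes of effect were 2.1 ± 0.09 for Fubp1 and 1.80 ± 0.07 for Srsf1. Ppl, which encodes periplakin of cell junctions, changed by 1.99 ± 0.16.

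Among genes that turned from above DMSO1 to below it, H1f2, a linker histone, had the largest change. It had 77 to 302 CPM (97.8) in 5FU and 48.7 to 66.1 (53.4) in DMSO1 at 6 hours, and 38 to 40.3 (39.3) against 65 to 84.6 (78.4) at 24 hours. The groups did not overlap at either time, and the value of 302 belonged to the first 5FU library, with the next at 102. The change was -2.17 ± 0.21 (adjusted p = 6.6e-13). Arrdc3, an arrestin family gene that acts in receptor traffic, had 56.8 to 72.7 CPM (64.4) against 21 to 26.9 (23.1) at 6 hours and 29.8 to 35.5 (32.4) against 42.3 to 52.8 (44.5) at 24 hours, a change of -1.94 ± 0.13. Pold4, the small subunit of DNA polymerase delta, changed by -1.85 ± 0.16 from an effect of 0.33 to -1.53, and Nckap5 by -1.95 ± 0.20.

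Among effects that appeared late, Adprhl1, a heart gene of the ADP-ribosylhydrolase family, led the upward changes. It had 177 to 221 CPM (207) in 5FU and 88.8 to 210 (180) in DMSO1 at 6 hours, where the groups overlapped, and 237 to 271 (240) against 37.3 to 94.9 (44) at 24 hours, where they did not. Its effect at 24 hours was 2.27 and the change 1.98 ± 0.24. The level in 5FU hardly moved (0.29 over time), while that in DMSO1 fell by 1.69 on the log2 scale. Klhl40, a muscle gene that stabilizes thin filament proteins, had a change of 1.69 ± 0.13 with the same division between arms, no called change over time in 5FU and -1.70 in DMSO1. In the other direction Mfap4, a microfibril protein of the matrix, had the largest fitted change, -4.84 ± 1.01 (adjusted p = 5.8e-05), but also a wide spread. Mfap4 ran from 0 to 3.16 CPM (1.03) in 5FU and from 0.628 to 55.2 (7.64) in DMSO1 at 24 hours, so the groups overlapped, and 2 of the 6 DMSO1 libraries, at 35.9 and 55.2, were far above the other 4. At 6 hours it had 0.554 to 12.6 CPM (4.23) in 5FU and 0 to 3.87 (3.43) in DMSO1. The other late genes selected upward were Tceal7 (-0.18 to 1.52) and Fam110a (-0.15 to 1.54), and the Tceal7 call was lost when any of 11 single libraries was left out. Reg3b, a secreted lectin, had a change of -2.61 ± 0.39 and C6h14orf180 one of -3.20 ± 0.26.

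**Figure D3:**
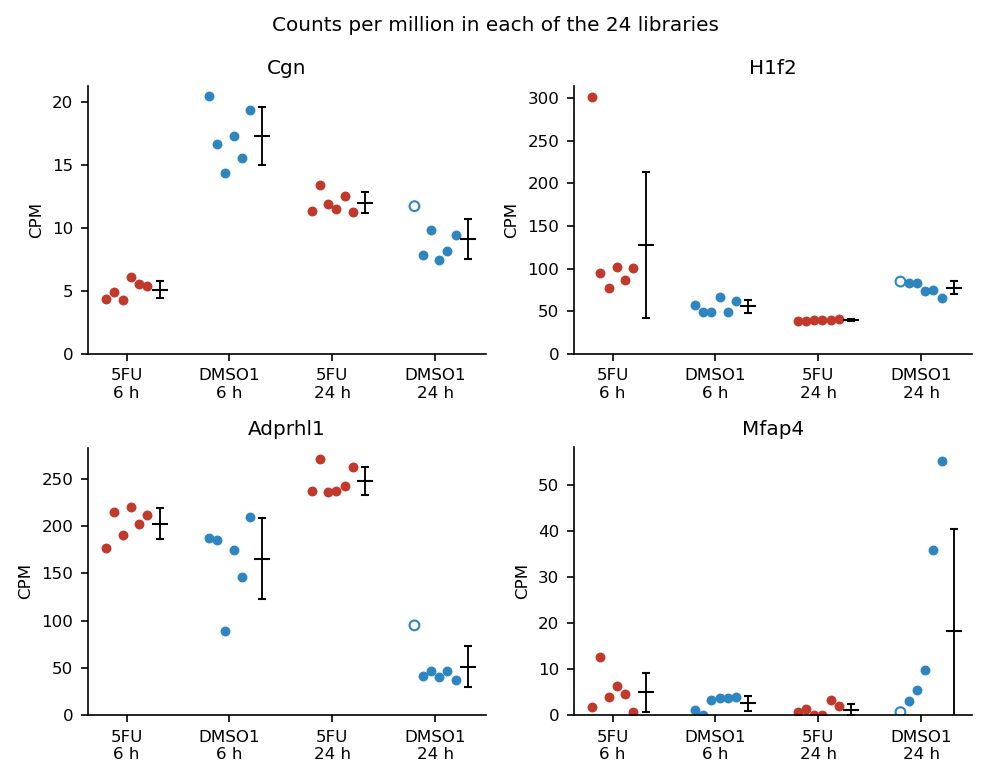
CPM (linear axis from 0) of Cgn, H1f2, Adprhl1 and Mfap4 in each of the 24 libraries, red for 5FU and blue for DMSO1, with the mean and SD of 6 libraries beside each group. The open circle is the first DMSO1 24-hour library, which lies toward the 5FU values for Cgn and Adprhl1, and the Mfap4 mean in DMSO1 at 24 hours rests on 2 libraries.

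Effects present at 6 hours only were led by Xirp2 and Atf3. Xirp2, an actin-binding protein of the intercalated disc, had 115 to 376 CPM (225) in 5FU and 115 to 1510 (970) in DMSO1 at 6 hours, where the third DMSO1 library, at 115, and the fourth, at 274, lay inside the 5FU range, and 189 to 238 (199) against 131 to 207 (159) at 24 hours. Its effect went from -2.01 to 0.37, a change of 2.38 ± 0.45. Against the DMSO2 control of the other drugs, which held 0.25% DMSO in place of 1%, the change had the opposite sign, -0.68, and was not called. Atf3, a stress-induced transcription factor, had 31.4 to 70.2 CPM (38.6) against 4.24 to 16.4 (9.02) at 6 hours with no overlap, and 3.47 to 6.15 (4.26) against 3.16 to 4.32 (4.11) at 24 hours with overlap, and its effect went from 2.19 to 0.17. Over time Atf3 fell by 3.21 in 5FU and fell by 1.19 in DMSO1 on the log2 scale. The other early genes selected upward were Adamts8 (-2.24 to -0.15), Anxa3 (-1.67 to 0.31) and Grip2 (-2.40 to -0.44), of which Adamts8 was not called (0.29) and Anxa3 had the opposite sign (-0.16) against DMSO2. Adrb1, the main beta-adrenergic receptor of heart muscle, went from 0.82 to -0.38 (change -1.20 ± 0.19), and Cpeb2, a regulator of polyadenylation, from 0.98 to -0.19 (-1.17 ± 0.16).

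Among effects that grew, Tppp3, a tubulin polymerization protein, had 7.53 to 14.8 CPM (9.67) against 6.14 to 7.94 (6.84) at 6 hours and 7.98 to 13.8 (10.3) against 0.914 to 2.79 (1.49) at 24 hours. The overlap at 6 hours was gone at 24 hours, and the change of 2.12 ± 0.24 came with a fall of 2.0 in DMSO1 and no called change over time in 5FU (0.13). Igfbp4, a secreted binding protein of insulin-like growth factors, was the mirror case: 18 to 23.4 CPM (20.9) against 23.6 to 32.4 (28) at 6 hours, and 13.9 to 16.9 (15.5) against 48.4 to 114 (97.7) at 24 hours, with no overlap at either time and a change of -2.14 ± 0.17. Piezo2, a mechanically gated ion channel, changed by -2.1 ± 0.23, from an effect of -0.79 to -2.89. Cilp, a matrix protein, had effects of -0.95 and -3.04. Upward, Pomc went from 0.38 to 1.70 and Masp2 from 0.95 to 2.0. Dop1b rose to 174 CPM on average in 5FU at 24 hours against 58.6 in DMSO1, a change of 1.07 ± 0.15 from an effect of 0.50.

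Among effects that faded, Gpr22, an orphan G protein-coupled receptor of heart muscle, had 8.43 to 13.8 CPM (11.7) against 39.6 to 93.3 (50.9) at 6 hours and 69 to 78.8 (71.7) against 79.9 to 122 (91.6) at 24 hours. The groups stayed apart, while the effect shrank from -2.25 to -0.41 (change 1.84 ± 0.18). B3galt2, a glycosyltransferase, went from -3.10 to -1.69, a change that was not called against DMSO2 (0.54), and Pimreg from -1.99 to -0.43. Klf2, a transcription factor induced by flow and stress, had 26 to 34.8 CPM (30) against 6.22 to 13.2 (9.33) and then 12.9 to 20.6 (16.2) against 9.32 to 15.2 (13), so that the groups overlapped only at 24 hours and the effect fell from 1.65 to 0.40. The kinases Map3k8 (1.68 to 0.63) and Map3k2 (1.36 to 0.32) faded in the same way, as did Kin (1.31 to 0.32). Of the genes whose change was called with neither effect called, Thbd, which encodes thrombomodulin of endothelial cells, went from -0.38 to 0.34 and Acsl1, an acyl-CoA synthetase of fatty acid use, from 0.26 to -0.36. The Acsl1 call was lost when the first 5FU 6-hour library (-0.40), the fifth DMSO1 24-hour library or the second or sixth DMSO1 6-hour library (-0.57 to -0.58 each) was left out, and that of Thbd without the fourth DMSO1 6-hour library (0.67). The others selected in this class were Adamts19 (-0.55 to 0.46), Rab7b (-0.44 to 0.52) and Espl1 (-0.33 to 0.32) upward and LOC100365839 (0.25 to -0.43), Oxct1 (0.30 to -0.33) and Tyrobp (0.30 to -0.31) downward. Against DMSO2, Rab7b was not called (0.15) and Adamts19 had the opposite sign (-0.32). The call of LOC100365839 was lost when any of 12 single libraries was left out, and that of Oxct1 without the first 5FU 6-hour library (-0.43).

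To describe processes, 32 lists of genes were counted, with 1022 of 1118 listed genes in the table. For each list the number of members with a called change is read against 20.3% higher and 19.2% lower among all genes, and the median change against -0.02. List counts in other settings have their own background. Of all 14554 genes, 3033 were higher and 3307 lower against DMSO2, and 3440 and 2214 with library size as the only scaling.

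**Figure D4:**
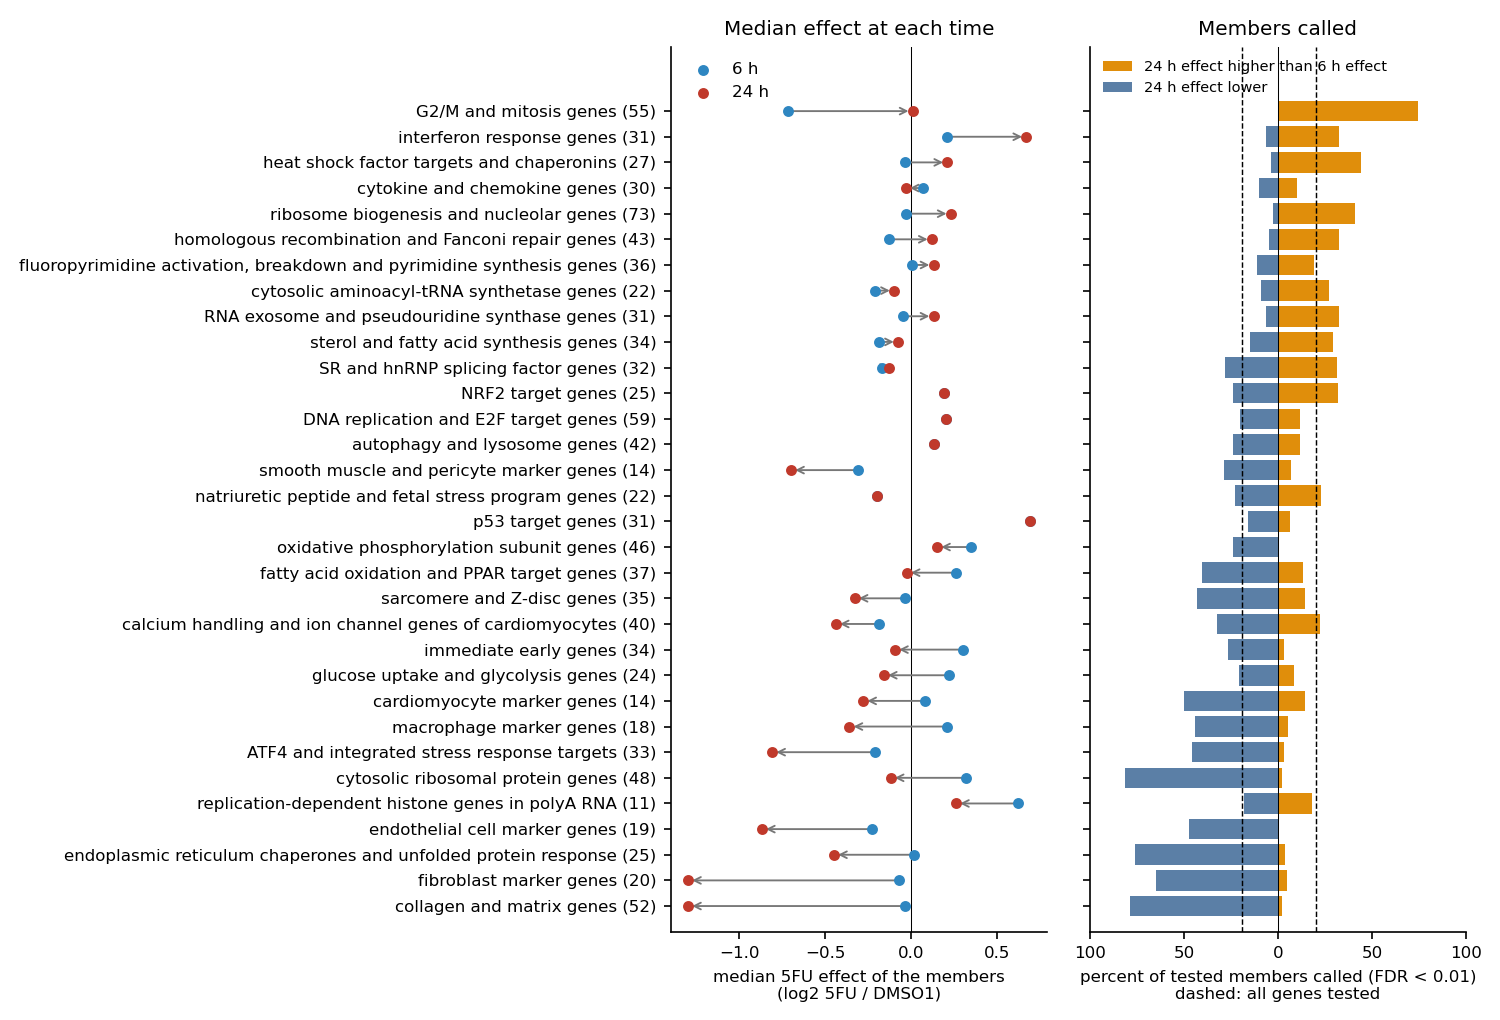
Left, median 5FU effect (log2 5FU/DMSO1) of the members of each list at 6 hours (blue) and 24 hours (red), with the number of members tested in brackets. Right, percent of members whose effect was called higher (orange) or lower (blue) at 24 hours, with dashed lines at 20.3% and 19.2% for all genes. G2/M genes lie at the higher end, and matrix genes and endoplasmic reticulum chaperones at the lower end.

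The genes of the G2 phase and mitosis, which build the spindle, condense chromosomes and drive entry into division, had the largest share of higher effects of the 32 lists. Of 55 tested, 41 had a higher effect at 24 hours and the others had no called change. The median effect went from -0.72 at 6 hours to 0.0085 at 24 hours, and 26 of the 41 belonged to the early class and 6 to the reversed. At 6 hours 42 of the 55 were below DMSO1 and 2 above, and at 24 hours 7 were below and 14 above. Over time 51 of the 55 fell in DMSO1 (median -1.0) and 22 fell in 5FU (median -0.14). Plk1, the polo-like kinase of mitotic entry, had 9.71 to 15.5 CPM (11.6) against 34.3 to 44.6 (36.3) at 6 hours and 11.6 to 14.5 (13.7) against 13.5 to 17.9 (15.1) at 24 hours. Cdc20, an activator of the anaphase-promoting complex, had 17.8 to 23.9 CPM (21.3) against 51.1 to 69.3 (55.6), and then 19.3 to 27.2 (22) against 20.6 to 28.8 (25). Both were well separated at 6 hours and overlapped at 24 hours where DMSO1 had fallen over time. Aspm, a protein of the spindle poles, crossed over, with 20.1 to 30.2 CPM (26.1) against 33.5 to 55.7 (42.6) and then 27.3 to 35 (31.2) against 18.4 to 34.9 (18.9), where the value of 34.9 was the first DMSO1 library. The changes were 1.49 ± 0.14, 1.35 ± 0.17 and 1.30 ± 0.18. Gtse1, which is in the p53 list as well, differed from most of the list: it was above DMSO1 at both times, by 1.81 and 2.19, and its change of 0.37 (adjusted p = 0.33) became 1.26 (adjusted p = 6.6e-10) without the first DMSO1 24-hour library.

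The promoters of these genes are known for a CCAAT box, bound by NF-Y, and for the cell cycle genes homology region (CHR), with the letters TTTGAA, bound by the DREAM and MuvB complexes. RefSeq promoters of GRCr8, from 250 bases before to 50 bases after the first listed gene start, were searched on both strands. TTTGAA was in 33 of 47 G2/M promoters (70.2%) and in 11.7% of the promoters of all 11403 tested genes that had one. CCAAT was in 35 of the 47 (74.5%) and in 37% of all. Among the 35 members with a higher effect and a promoter in the table, 25 held TTTGAA. Over all 1333 genes with TTTGAA, 22.9% had a higher and 17.6% a lower effect, near the background. A match is a description of the letters and not of binding, and no match says only that these letters are not in this window. The promoters of Plk1 (chr1:186147408-186147707, plus strand), Cdc20 (chr5:137255750-137256049, minus strand) and Aspm (chr13:53625334-53625633, plus strand), the 3 members with the largest change, are printed here with TTTGAA and CCAAT (or ATTGG, its reverse complement) in capitals.
Plk1: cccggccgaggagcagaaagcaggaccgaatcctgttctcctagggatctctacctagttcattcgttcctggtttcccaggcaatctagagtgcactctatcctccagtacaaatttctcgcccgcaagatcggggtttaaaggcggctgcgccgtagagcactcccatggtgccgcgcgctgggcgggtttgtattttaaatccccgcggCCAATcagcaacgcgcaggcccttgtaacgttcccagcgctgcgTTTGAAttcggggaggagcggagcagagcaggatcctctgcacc
Cdc20: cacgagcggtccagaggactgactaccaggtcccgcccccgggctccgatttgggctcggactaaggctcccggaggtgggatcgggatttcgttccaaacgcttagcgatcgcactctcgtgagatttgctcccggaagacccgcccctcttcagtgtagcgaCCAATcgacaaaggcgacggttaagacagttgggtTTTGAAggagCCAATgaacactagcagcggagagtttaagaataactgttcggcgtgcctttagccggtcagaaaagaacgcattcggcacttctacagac
Aspm: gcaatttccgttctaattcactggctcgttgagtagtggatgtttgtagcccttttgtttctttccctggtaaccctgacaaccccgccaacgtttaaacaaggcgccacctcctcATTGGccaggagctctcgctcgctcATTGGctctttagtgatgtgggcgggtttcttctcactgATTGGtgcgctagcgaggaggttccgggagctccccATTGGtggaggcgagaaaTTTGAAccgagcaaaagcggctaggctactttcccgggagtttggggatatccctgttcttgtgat
In Plk1 the capitals show a CCAAT box upstream of TTTGAA, in Cdc20 the TTTGAA lies between CCAAT boxes, and in Aspm it follows 4 CCAAT boxes in reverse orientation.

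Genes of DNA replication and E2F control did not move with the mitotic genes. Of 59 tested, 7 had a higher and 12 a lower effect. Without the first DMSO1 24-hour library the counts were 11 and 12, and with library size as the only scaling they were 12 and 9, so the balance between directions was not stable. The median effect was 0.20 at both times. Nearly all fell over time in both arms, 52 in DMSO1 and 51 in 5FU. Against DMSO2 the list had 7 higher and 25 lower. The licensing genes Cdt1 (0.98 to -0.08) and Cdc6 (0.82 to -0.30) lost an early rise, while the polymerase delta subunits Pold2 (0.11 to 0.89) and Pold1 (0.16 to 0.82) gained a late one. Of 43 genes of homologous recombination and Fanconi repair 14 had a higher and 2 a lower effect, among them Topbp1 (change 0.68 ± 0.12, not called against DMSO2 at 0.32), a checkpoint activator, and Rad52 (-0.91 ± 0.14). Of 36 genes that activate or break down fluoropyrimidines or make pyrimidines, 7 had a higher and 4 a lower effect (12 and 3 with library size as the only scaling, 8 and 7 against DMSO2). Tdg, a glycosylase that removes uracil and fluorouracil from DNA, turned from -0.37 to 0.53. Tk1, the thymidine kinase of dividing cells, went from 0.05 to -0.51, and Dpyd, which encodes the enzyme that breaks down 5FU, from 0.12 to -0.67 at mean levels of 1.59 to 6.33 CPM. The Dpyd call was lost when any of 6 single libraries was left out (-0.70 to -0.75), and against DMSO2 (-0.36). Of 11 histone genes 2 had a higher and 2 a lower effect. The list is not limited to replication-dependent histones, as it includes H2az1 and H3f3b. Messages of replication-dependent histones, such as H1f2, mostly lack a polyA tail and are thus poorly sampled here.

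The p53 target genes were above DMSO1 at both times (median effect 0.69 and 0.69), 22 of 31 at 6 hours and 22 at 24 hours. Of the 31, 2 had a higher and 5 a lower effect at 24 hours, and without the first DMSO1 24-hour library the counts were 10 higher and 3 lower, with the median change going from -0.13 to 0.0072. With that library in, both shares (6.45% higher and 16.1% lower) were below those of all genes (20.3% and 19.2%). Which direction had more calls in this list therefore depended on that library. Pmaip1, which encodes the apoptosis activator NOXA, had a smaller rise at 24 hours in both fits: it had 11.8 to 26.9 CPM (17) against 4.03 to 5.58 (5.14) at 6 hours and 4.07 to 4.88 (4.52) against 1.83 to 6.33 (2.93) at 24 hours, a change of -1.46 ± 0.30 (-1.17 without the library). Gdf15 had 77.5 to 236 CPM (102) against 6.29 to 10.9 (8.23) at 6 hours and 52.3 to 63.5 (58.8) against 6.14 to 58.5 (7.44) at 24 hours. Its change of -1.96 ± 0.42 (adjusted p = 7.5e-05) became -0.79 (adjusted p = 0.015) and was no longer called without the library. Ppm1d, a phosphatase that turns p53 off again, faded from 0.81 to 0.29, and Triap1 grew from 0.63 to 1.05.

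Collagen and matrix genes had the lowest median change of the 32 lists, -1.3. Of 52 tested, 41 had a lower effect at 24 hours and 1 a higher (43 and 2 without the first DMSO1 24-hour library), 33 in the late class, and the median effect went from -0.04 to -1.3. At 6 hours 10 were below DMSO1 and 3 above, and at 24 hours 47 were below and 1 above. Over time 24 rose and 15 fell in DMSO1, while 3 rose and 38 fell in 5FU. Col6a6, a chain of collagen VI, had 2.32 to 3.92 CPM (3.15) against 4.30 to 6.01 (5.05) at 6 hours and 1.86 to 3.66 (3.19) against 15.6 to 63.4 (52.5) at 24 hours, a change of -3.31 ± 0.35. Postn, which encodes periostin of activated fibroblasts, had 177 to 339 CPM (247) against 279 to 399 (304), and then 158 to 199 (175) against 665 to 1240 (1170), a change of -2.31 ± 0.20. In both genes DMSO1 rose over time (3.27 for Col6a6 and 1.77 for Postn), while 5FU had no called change for Col6a6 (-0.04) and fell by 0.54 for Postn, and the lowest DMSO1 24-hour value was that of the first library. Tnc, which encodes tenascin C, fell in both arms: it had 33.6 to 53.7 CPM (46.2) against 58.4 to 78.6 (68.8) at 6 hours and 5.83 to 6.98 (6.71) against 23 to 47.8 (44.9) at 24 hours. The major fibrillar chains Col1a1 (change -1.27), Col1a2 (-1.31) and Col3a1 (-1.83) and fibronectin, Fn1 (-2.09), were also called. The exception was Ccn4, a signalling protein of the matrix, whose effect faded from -1.56 to -1.07.

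Marker genes of the cell types in the culture were counted beside the matrix genes. Of 20 fibroblast markers 13 had a lower and 1 a higher effect, and their summed level was 7100 to 10900 CPM (median 9240) in 5FU and 7780 to 11400 (9800) in DMSO1 at 6 hours, and 5670 to 6180 (6000) against 10200 to 19100 (16200) at 24 hours. In the first DMSO1 24-hour library the sum was 10200, against 15100 or more in the other 5. The fibroblast markers include Col1a1, Col3a1 and Postn, given with the matrix genes above, so this count and sum partly repeat that result. Pdgfra, a receptor that defines cardiac fibroblasts, went the other way, from -1.49 to -0.93, a call that was lost without the 3 libraries that stood apart (0.33). Of 19 endothelial markers 9 had a lower effect and the others no called change, and the sum was 244 to 284 CPM in 5FU and 369 to 512 in DMSO1 at 24 hours, after 296 to 386 against 311 to 426 at 6 hours. Vwf, the von Willebrand factor of endothelial cells, had 11.4 to 19.8 CPM (12.7) against 8.36 to 17.4 (12.4) at 6 hours and 1.18 to 2.1 (1.66) against 3.61 to 7.91 (7.00) at 24 hours, a change of -2.09 ± 0.28. Of 18 macrophage markers 8 had a lower and 1 a higher effect (8 lower and no other call without the first DMSO1 24-hour library), and their sum was 117 to 132 CPM in 5FU against 107 to 136 in DMSO1 at 6 hours and 152 to 170 against 184 to 227 at 24 hours. Mrc1, the mannose receptor, had 7.11 to 10.2 CPM (9.68) against 7.98 to 11.4 (9.66) and then 5.78 to 7.32 (6.87) against 14 to 23.2 (20.4). Of 14 smooth muscle markers 4 had a lower and 1, Myh11 (0.73 to 1.48, not called against DMSO2), a higher effect, with a median change of -0.10, and without the first DMSO1 24-hour library 2 were higher. Their sum was 5710 to 9360 CPM against 4920 to 10500 at 6 hours and 3040 to 3740 against 3560 to 4410 at 24 hours. Of 14 cardiomyocyte markers 7 had a lower and 2 a higher effect, and their sum was 50500 to 67500 CPM against 48900 to 64500 at 6 hours and 30900 to 33000 against 39000 to 46200 at 24 hours. No marker of the 5 lists was at 0 in a whole group, and the part of cell composition in the gene results was not tested.

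**Figure D5:**
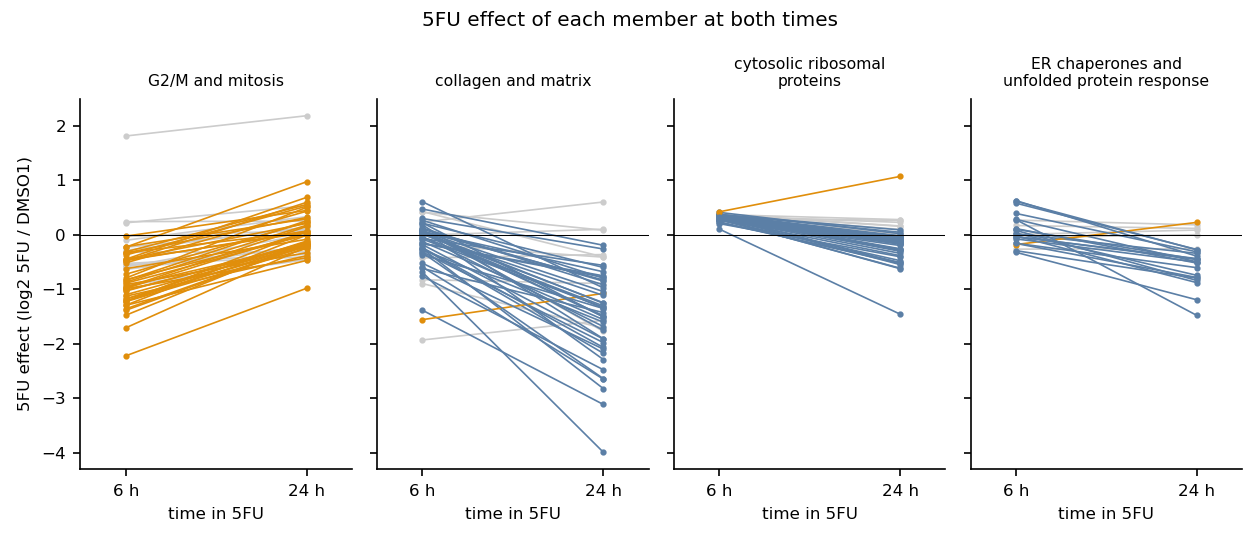
5FU effect (log2 5FU/DMSO1) of each member of 4 lists at 6 and at 24 hours, joined by a line, orange where the change was called higher, blue where it was called lower and grey where it was not called. The 41 called G2/M genes rise, 41 of 52 matrix genes fall, and 39 of 48 ribosomal protein genes and 19 of 25 endoplasmic reticulum genes move from above or near 0 downward.

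Chaperones of the endoplasmic reticulum and sensors of the unfolded protein response, which fold secreted proteins and adjust that capacity, had a lower effect at 24 hours in 19 of 25 genes and a higher one in 1. The median effect went from 0.02 to -0.45, and 19 were below DMSO1 at 24 hours against 3 at 6 hours. Calr, the lectin chaperone calreticulin, had 791 to 1010 CPM (871) against 775 to 903 (848) at 6 hours and 354 to 396 (368) against 466 to 713 (698) at 24 hours, a change of -0.92 ± 0.10 (adjusted p = 9.1e-12). Sdf2l1, a cofactor of the chaperone BiP, had 24.5 to 33.9 CPM (27.1) against 21.7 to 24.2 (23.7) and then 3.97 to 6.03 (5.34) against 6.91 to 19.7 (16), a change of -1.76 ± 0.18. Neither pair of groups overlapped at 24 hours. The list includes Hspa5, which encodes BiP itself (-0.63), Xbp1 (-0.87) and the sensors Eif2ak3 (-0.89) and Ern1 (-0.85). The exception was Hspa13, which turned up (0.41 ± 0.09).

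Genes of this kind are known for an element in which CCAAT is followed, after 9 bases, by CCACG, bound by NF-Y and ATF6. The CCAAT in it is also counted as a CCAAT box above. It was in 8 of 20 promoters of the list (40%), namely Calr, Canx, Creld2, Derl3, Dnajc3, Hsp90b1, Hspa5 and Xbp1, and in 0.158% of all 11403. Of the 18 tested genes that held it 9 had a lower and 2 a higher effect. As 7 of those 9 were members of this list, the count mostly repeats the list result. Of the 3 named members of the list with the largest decrease, Calr and Derl3 held the element, while Sdf2l1 was not among the 8. The promoters of Calr (chr19:40213117-40213416, plus strand) and Derl3 (chr20:12766416-12766715, minus strand) are therefore printed, with the element in capitals, in reverse orientation in both.
Calr: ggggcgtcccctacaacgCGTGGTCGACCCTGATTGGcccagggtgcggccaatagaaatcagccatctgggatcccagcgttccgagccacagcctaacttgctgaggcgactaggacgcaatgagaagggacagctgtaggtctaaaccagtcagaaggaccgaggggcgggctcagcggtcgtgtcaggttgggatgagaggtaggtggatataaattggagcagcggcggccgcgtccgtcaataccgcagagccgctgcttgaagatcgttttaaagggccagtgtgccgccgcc
Derl3: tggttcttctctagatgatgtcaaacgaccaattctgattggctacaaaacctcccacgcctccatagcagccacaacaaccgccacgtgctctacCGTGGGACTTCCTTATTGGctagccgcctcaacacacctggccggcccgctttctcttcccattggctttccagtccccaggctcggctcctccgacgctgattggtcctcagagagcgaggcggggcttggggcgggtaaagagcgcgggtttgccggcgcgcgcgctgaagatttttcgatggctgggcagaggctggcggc
The capitals begin with CGTGG and end with ATTGG, the reverse complements of CCACG and CCAAT. Derl3 itself, a factor that retrieves misfolded proteins, lost an effect of 0.63 at 6 hours (change -1.02 ± 0.23) at mean levels of 1.37 to 2.28 CPM.

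Targets of ATF4, the transcription factor of the integrated stress response that supplies amino acids and their transporters, had a lower effect in 15 of 33 genes and a higher one in 1, and against DMSO2 a lower one in 25. At 6 hours 14 of the 33 were below DMSO1 and 7 above, and at 24 hours 24 were below and 3 above, with the median effect going from -0.21 to -0.81. Pycr1, of proline synthesis, had 13.4 to 18.5 CPM (14.5) against 15.6 to 18.5 (16.4) at 6 hours and 2.84 to 3.68 (3.54) against 6.23 to 19.2 (15.4) at 24 hours, a change of -1.96 ± 0.19. The amino acid transporter Slc7a3 changed by -2.12 ± 0.26, and Vldlr, a lipoprotein receptor, was the 1 member with a higher effect (-1.29 to -0.90). Its call was lost when any of 5 single libraries was left out (0.32 to 0.36), and against DMSO2 the change had the opposite sign (-0.30). The C/EBP-ATF element, TGATG followed by any base and AA, was in 7 of 29 promoters of the list (24.1%) and in 2.08% of all. Of the cytosolic aminoacyl-tRNA synthetases, also ATF4 targets in part, 6 of 22 had a higher and 2 a lower effect, and against DMSO2 the counts were 1 and 7.

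Cytosolic ribosomal protein genes had a lower effect in 39 of 48 and a higher one in 1. They were above DMSO1 at 6 hours (46 of 48, median 0.32), and at 24 hours 3 were above and 16 below (median -0.12). Over time nearly all fell in both arms, 47 in 5FU (median -0.91) and 46 in DMSO1 (-0.41). Rpl3, a core protein of the large subunit, had 1250 to 1620 CPM (1420) against 1250 to 1430 (1300) at 6 hours and 338 to 376 (349) against 500 to 1120 (1070) at 24 hours, a change of -1.56 ± 0.13 (adjusted p = 8.8e-16). The groups overlapped at 6 hours and were apart at 24 hours, where the DMSO1 value of 500 was the first library and the next was 966. The exception was Rps27l, a p53 target, whose effect grew from 0.42 to 1.07, a change that was not called with only the groups compared in the fit (0.63). Ribosomal protein genes have many processed copies, so that their counts may be shared with near-identical sequences. Without the 3 libraries that stood apart the count was 25 lower and 1 higher, and the median -0.36 in place of -0.44.

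Of 73 ribosome biogenesis and nucleolar genes, which make and assemble ribosomal RNA, 30 had a higher and 2 a lower effect and the others no called change, with the median effect going from -0.03 to 0.23. At 6 hours 17 were above and 29 below DMSO1, and at 24 hours 39 were above and 9 below. Over time 67 fell in DMSO1 and 52 in 5FU. Against DMSO2 the counts were 20 higher and 8 lower. Polr1a, the catalytic subunit of RNA polymerase I, had 31.7 to 43 CPM (38.8) against 43.2 to 64.6 (53.2) at 6 hours and 40.8 to 48.1 (45.6) against 30.3 to 36.3 (33.4) at 24 hours, with no overlap at either time and a change of 0.93 ± 0.11. Rrp12, a factor of ribosomal RNA processing, had 38.8 to 51 CPM (42.1) against 42.3 to 89.3 (77) and then 19.3 to 24 (22.2) against 17.2 to 20.6 (18.9), a change of 0.98 ± 0.15, and against DMSO2 its change of 0.19 was not called. Of 31 genes of the RNA exosome and pseudouridine synthases, enzymes that 5FU in RNA is known to hamper, 10 had a higher and 2 a lower effect, among them the exosome subunits Exosc8 (-0.54 to 0.39) and Dis3 (-0.27 to 0.65). Splicing factor genes were split, with 10 of 32 higher and 9 lower. Hnrnpa1 (-0.34 to -1.31) and Hnrnpl (-0.29 to -1.0) grew downward, and Hnrnpdl (0.20 to 0.93) and Hnrnph2 (0.03 to 0.70) moved up, besides Srsf1.

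Sarcomere and Z-disc genes, which build the contractile apparatus, had a lower effect in 15 of 35 and a higher one in 5, and against DMSO2 a lower one in 21 with no other call. The median effect went from -0.04 to -0.33. Myom2, a protein of the M-band, had the largest decrease (-2.39 ± 0.20), with a mean of 30.2 CPM in 5FU and 138 in DMSO1 at 24 hours. Myh6 and Myh7, the alpha and beta heavy chains of myosin, changed by -0.91 and -1.11. The Myh7 call was lost when any of 5 single libraries was left out (-0.95 to -1.05). Csrp3, a Z-disc protein, had 640 to 985 CPM (744) against 419 to 2180 (1760) at 6 hours and 230 to 305 (242) against 220 to 254 (237) at 24 hours. The groups overlapped at both times, at 6 hours through the third DMSO1 library at 419, and the change of 1.06 ± 0.32 had the opposite sign against DMSO2 (-0.79, not called). The Csrp3 call was also lost without the second (0.95) or sixth (0.93) DMSO1 6-hour library. Of 40 genes of calcium handling and ion channels 9 had a higher and 13 a lower effect. Atp2a2, the calcium pump SERCA2 of the sarcoplasmic reticulum, had 2930 to 3650 CPM (3300) against 2800 to 3330 (2960) and then 1590 to 1950 (1790) against 3550 to 5150 (4610), a change of -1.43 ± 0.11. Ryr2, the calcium release channel beside it, had 475 to 705 CPM (560) against 487 to 660 (598) and then 338 to 401 (357) against 746 to 1250 (1070), a change of -1.45 ± 0.17. Both were level with DMSO1 at 6 hours and fully separate at 24 hours. Kcnj5, a subunit of the acetylcholine-gated potassium channel, moved up: it had 7.94 to 11.9 CPM (11.4) against 22.5 to 26.9 (24.7) at 6 hours and 66.3 to 85.3 (75.7) against 48 to 67.5 (54) at 24 hours, a change of 1.63 ± 0.13. The pacemaker channel Hcn4 recovered from -1.14 to 0.29. The natriuretic peptide and fetal stress list was split (5 higher and 5 lower of 22, 22.7% each and near the shares of all genes). Its median effect was -0.20 at both times, and at 24 hours 2 members were above DMSO1 and 8 below. Nppa, the atrial natriuretic peptide, had 8440 to 15100 CPM (10800) against 6810 to 9730 (8320) at 6 hours and 4880 to 6990 (5790) against 1140 to 2600 (1310) at 24 hours, a change of 1.45 ± 0.24.

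Among the metabolic lists, of 46 nuclear genes of oxidative phosphorylation 44 were above DMSO1 at 6 hours (median 0.35). At 24 hours 19 were above and only 2 below (median 0.15). A called lower effect was found in 11 (23.9%, near the 19.2% of all genes), with 18 against DMSO2 and 7 with library size as the only scaling. Sdha, a subunit of succinate dehydrogenase, had 639 to 752 CPM (744) against 582 to 618 (603) and then 511 to 581 (536) against 631 to 674 (653), turning from 0.25 to -0.27. Of 37 genes of fatty acid oxidation and PPAR control 15 had a lower and 5 a higher effect, and that count of 15 ran from 9 (without the second 5FU 24-hour library) to 19 (without the sixth 5FU 6-hour library), and was 8 with library size as the only scaling. Lpl, the lipase that frees fatty acids at the vessel wall, had 93.9 to 146 CPM (96.8) against 92.5 to 116 (107) and then 89.5 to 104 (92.8) against 154 to 235 (219), a change of -1.13 ± 0.12. Of 24 genes of glucose use 2 had a higher and 5 a lower effect. Pgam1, a phosphoglycerate mutase, had 356 to 604 CPM (372) against 327 to 474 (441) at 6 hours and 615 to 672 (632) against 265 to 340 (269) at 24 hours, a change of 1.24 ± 0.15, while the muscle enolase Eno3 went from 0.18 to -1.1. Of 34 genes of sterol and fatty acid synthesis, 32 fell over time in 5FU and 30 in DMSO1, and 10 had a higher and 5 a lower effect, with 5 and 13 against DMSO2. The count of 5 was 2 without the fourth 5FU 6-hour library and 1 with library size as the only scaling. Hmgcs1, of the mevalonate pathway, had 408 to 618 CPM (508) against 547 to 881 (790) and then 140 to 237 (149) against 81.5 to 106 (94.7), turning from -0.52 to 0.84.

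Heat shock factor targets and chaperonins had a higher effect in 12 of 27 and a lower one in 1, with 9 and 3 against DMSO2. Hspa1b, an inducible HSP70, had 33.9 to 53.1 CPM (41.8) against 22.7 to 47.3 (39.1) at 6 hours and 21.2 to 25.1 (22.2) against 8.04 to 12.7 (8.88) at 24 hours, a change of 1.1 ± 0.17, and Hsp90aa1 turned from -0.57 to 0.48. Of 25 NRF2 targets 8 had a higher and 6 a lower effect. Nqo1, a quinone reductase, had 178 to 198 CPM (186) against 153 to 180 (163) and then 87.4 to 105 (94.3) against 31.1 to 69.4 (37.2), a change of 1.0 ± 0.15. The cystine transporter Slc7a11 went down (-0.66 to -1.60) and Hmox1, heme oxygenase, lost an early rise (0.78 to 0.08), a change that was not called without the first 5FU 6-hour library (-0.56) or against DMSO2 (-0.24). Of 42 autophagy and lysosome genes 5 had a higher and 10 a lower effect, with the cargo receptor Sqstm1 up (-0.09 to 0.61) and Gpnmb, a lysosomal glycoprotein, down (0.13 to -1.06).

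Interferon response genes, which cells switch on against viral nucleic acid, had a higher effect in 10 of 31 and a lower one in 2, Ifit1 and Bst2 (17 and 2 against DMSO2), with the median effect going from 0.21 to 0.67. At 24 hours 23 were above DMSO1 and 2 below. Levels were low: Rsad2, which encodes the antiviral enzyme viperin, had 0.504 to 1.49 CPM (0.778) against 0.580 to 1.09 (0.682) at 6 hours and 2.68 to 3.77 (3.55) against 0.261 to 0.785 (0.498) at 24 hours, a change of 2.52 ± 0.41 (adjusted p = 5.0e-07). Isg15, a ubiquitin-like modifier, had a mean of 7.68 CPM in 5FU and 3.41 in DMSO1 at 24 hours (change 1.18 ± 0.22). Ifit1 had an effect of 2.85 at 6 hours and of 0.14 at 24 hours, at mean levels of 4.47 CPM or less. Immediate early genes, first responders to growth signals and stress, had a lower effect in 9 of 34 and a higher one in 1. Without the first DMSO1 24-hour library the counts were 9 and 3, and against DMSO2 17 were lower. Fosb went from 2.12 to -0.48 and Jun from 0.66 to -0.25, and Dusp6, a phosphatase that dampens ERK, from -0.85 to -0.13 (not called against DMSO2). Of 30 cytokine and chemokine genes 3 were higher and 3 lower, below the background, and 9 and 3 without the 3 libraries that stood apart, with Tgfb2 (-2.14 to -0.60) and Tgfb3 (-1.43 to -0.37) recovering. Against DMSO2 their changes had the opposite sign and were not called.

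The change of effect was also set against those of the other drugs, acetaminophen (Ace, 2.5 mM) and doxorubicin (Dox, 1.25 μM), each relative to its own DMSO2 control, as a test of the difference itself. Ace, Dox and DMSO2 cultures held 0.25% DMSO and the 5FU and DMSO1 cultures 1%, so drug and DMSO level cannot be told apart in these differences. It differed from that of Ace in 2880 genes (10.5% of all genes higher in 5FU and 9.32% lower). The G2/M list had 28 of 55 genes lower than in Ace with no other call (median difference -0.68), and DNA replication genes 30 of 59 lower and 2 higher. Matrix genes were lower in 24 of 52 with no other call (-0.76), and ribosome biogenesis genes higher in 13 of 73 and lower in 1. Among genes with a mean count of at least 100, the largest differences were those of Xirp2 (2.54 ± 0.61) and Zfc3h1 (2.33 ± 0.18), a nuclear RNA surveillance factor, upward, and Gdf15 (-3.22 ± 0.59) and C6h14orf180 (-2.85 ± 0.34) downward. Without the first DMSO1 24-hour library the Gdf15 difference was -2.04, smaller than that of C6h14orf180 (-2.95). The other genes selected were Adprhl1 (2.03), Gpr22 (1.92) and Bean1 (1.90) upward and Lims2 (-2.59), Pmaip1 (-2.52) and Nt5dc2 (-2.33) downward. With DMSO2 as the control of 5FU, the 5FU changes of Xirp2 (-0.68) and Bean1 (-0.37) had the opposite sign and were not called. Against Dox the change differed in 7756 genes (26.2% higher and 27.1% lower). There sarcomere genes were higher in 5FU in 23 of 35 and lower in 1 (median difference 1.5), macrophage markers higher in 11 of 18 with no other call (1.0), and immediate early genes lower in 29 of 34 and higher in 1 (-1.8). A higher difference from Dox need not be a rise in 5FU. The 5FU change itself was lower in 15 and higher in 5 of the sarcomere genes, and lower in 8 and higher in 1 of the macrophage markers. Cldn5, a tight junction protein, had the largest difference upward (8.31 ± 0.93) and Pcdh17, a protocadherin, the largest downward (-4.63 ± 0.30). The other genes selected were Xirp2 (6.56), Yipf7 (5.51), Sphkap (5.33) and Atp6ap1l (5.01) upward and Pmaip1 (-4.44), Isyna1 (-4.02), Gdf15 (-4.00) and Atf3 (-3.91) downward. For the upward genes the 5FU change itself was much smaller. Without the first DMSO1 24-hour library it was 2.47 for Xirp2, 1.37 for Yipf7 and -0.80 for Atp6ap1l. It was not called for Cldn5 (1.3) and Sphkap (-0.07).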

How the data were processed

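RNA with polyA tails was sequenced as paired reads from 65 cultures. According to the methods, the authors quantified reads with kallisto 0.46.0, gathered transcript values into Entrez genes through tximport and dropped weakly counted genes. The authors deposited whole-number estimated counts for 14554 genes, so counting ambiguity between similar genes is hidden. Every gene reached 10 counts in 1 or more libraries, so none was filtered out here. All 65 libraries in 10 groups were fitted with edgeR 4.0.16 (R 4.3.3, limma 3.58.1) using TMM scaling and the quasi-likelihood test, with 55 residual degrees of freedom and a call at FDR below 0.01. DESeq2 1.42.0, other scalings, filters, thresholds and controls, and single libraries left out, served as alternatives. Symbols of 14009 genes and the promoter sequences came from RefSeq tables of GRCr8, used by gene and not by the authors' coordinates. Scripts were tested on simulated data. Figures and promoter searches used Python 3.11.15.

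Per class and direction, the 4 genes with the largest change were selected among those with a symbol, a mean count of at least 100 and a call in the same direction without the first DMSO1 24-hour library. Per list, up to 3 called members in each direction could be named under the same condition on that library, of which the text gives a selection made with their values in view, and per drug comparison the 5 largest differences in each direction. The members and lists were chosen with earlier results of these data known. Fibronectin, the major collagens and similar members are named as members of a list.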

Additional observations from a re-analysis of the deposited data

Results flagged for a closer look

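The levels of the 41 genes given by library were searched for a single library far from the 5 others of its group, by Dixon's test in each of the 164 sets of 6. Chance flags about 1 set in 20, and 27 were flagged. The first DMSO1 24-hour library was the one apart in 14 of them. It was the highest of its group for Gdf15 (58.5 CPM, next 7.54), Adprhl1 (94.9, next 47), Aspm (34.9, next 20.9), Nqo1 (69.4, next 39.1), Pgam1 (340.0, next 278), Hspa1b (12.7, next 9.27) and Arrdc3 (52.8, next 45). It was the lowest for Postn (665 CPM, next 1130.0), Rpl3 (500.0, next 966), Calr (466, next 687), Igfbp4 (48.4, next 95.5), Tnc (23, next 40.6), Col6a6 (15.6, next 48.8) and Pycr1 (6.23, next 14.5). For Arrdc3 the library lay on the far side of its mates from 5FU, and for the others toward 5FU.

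The first 5FU 6-hour library was the highest of its group for H1f2 (302 CPM, next 102), Gdf15 (236, next 129), Atf3 (70.2, next 40), Pgam1 (604, next 390.0), Lpl (146, next 101), Tppp3 (14.8, next 10.2) and Pycr1 (18.5, next 15.2). The third DMSO1 6-hour library was the highest for Gpr22 (93.3 CPM, next 52.7) and the lowest for Pgam1 (327, next 423). The second 5FU 24-hour library was the highest for Csrp3 (305 CPM, next 252) and Pgam1 (672, next 636). The sixth 5FU 6-hour library was the highest for Srsf1 (119 CPM, next 106), and the fifth DMSO1 24-hour library the lowest for Atf3 (3.16, next 3.98).

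The test of the difference itself called 5755 genes for the 5FU effect at 24 against 6 hours, 2880 for the change in 5FU against that in Ace and 7756 for the change in 5FU against that in Dox.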

How the results depend on the processing

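The count of 5755 genes ranged from 5475 (without the fourth DMSO1 24-hour library) to 6016 (without the first) when single libraries were left out. It was 5885 with DESeq2's Wald test, 5753 with DESeq2's size factors, 5736 with filterByExpr, 4946 with only the groups compared in the fit and 5949 without the 3 libraries that stood apart, an alternative chosen after seeing the data. With library size as the only scaling it was 5654, of which 60.8% were higher. That scaling also moved the share of higher calls from 48.9% to 36.8% for the 6-hour effect and from 47.4% to 61.1% for the change over time in 5FU. It moved the median of all genes from -0.03 to 0.09 in the latter and from -0.07 to -0.21 for 5FU against Dox. With a log2 change of at least 1 required as well, the counts were 1048 for the change of effect, 877 and 1490 for the effects at 6 and 24 hours, 1650 and 1524 for the change over time in 5FU and DMSO1, and 626 and 3749 for the differences from Ace and Dox. At an FDR of 0.1 the count for Ace was 5447. Against DMSO2, 0.25% DMSO in place of 1%, 6340 genes were called, 4682 of them shared in the same direction, and the change had the opposite sign for Tgfb2 (-0.29), Xirp2 (-0.68), Anxa3 (-0.16), Adamts19 (-0.32), Vldlr (-0.30), Iars1 (-0.0795), Csrp3 (-0.79), Tcap (-0.19), Tgfb3 (-0.21), Bean1 (-0.37) and Sphkap (0.50). The cause was not tested. Of 217 values of selected genes, 24 lost their call against DMSO2, 17 with only the groups compared, 13 without the 3 libraries that stood apart, 8 with library size only and 1 (Tceal7) with DESeq2's test. Leaving out single libraries lost 102 calls of 4728 tests. Only Gdf15 lost its call without the first DMSO1 24-hour library, but that count was fixed by the selection, which required a call without it. Over all genes 5552 of the 5755 calls were kept without that library. No paired analysis was possible because the columns carry no replicate numbers. Counting depth limits the genes of a few CPM, such as Mfap4, Rsad2 and Derl3, and cultures of a single preparation do not give the spread between animals.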
